A study of Homo sapiens with 95 samples.

Results

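Thioredoxin, its reductase and inhibitor, sulfiredoxin and the 6 peroxiredoxins were read out in AALE, an immortalized human bronchial epithelial cell line. The members were chosen by symbol (TXN, TXNRD1, TXNIP, SRXN1 and PRDX1 to PRDX6), and all 10 were found among the 23895 genes listed in every count table. The 3′DGE assay counts 1 molecule at the 3′ end of each captured transcript, so that a gene's count over the well's total, scaled to the same total in every well (CPM), can be set beside that of a gene of another length. AALE cells carried 1 of 8 genotypic perturbations and received 1 of 4 chemicals. The populations named NRF2, FGFR1, NRG1 and PIK3CA overexpressed that gene (NRF2 is the protein of NFE2L2), and their control, HCRED, carried an empty vector with the HcRed reporter. The populations named FAT1 and CDKN2A were CRISPR knockouts, and their control, GFP, was given the Cas9-EGFP plasmid with no guide RNA. The chemicals were cigarette smoke condensate (CSC, 24 µg/ml), benzo[a]pyrene (BaP, 173 µM), the nitrosamine NNK (490 µM) and the vehicle DMSO. The sources used here do not give the length of exposure, the promoters of the vectors, or whether a population was a clone. Of 95 wells, 82 carried a replicate number of 1 digit, and 25 population and chemical groups held 3 such wells each. Another 13 wells carried 2-digit numbers that the labels do not explain, and they were kept out of the main comparisons.

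Peroxiredoxins reduce hydrogen peroxide through a reactive cysteine. The oxidized cysteine of most of them is reset by thioredoxin (TXN), which thioredoxin reductase (TXNRD1) in turn reduces with NADPH, while sulfiredoxin (SRXN1) repairs peroxiredoxins that have been oxidized too far. TXNIP binds thioredoxin and blocks it, and its transcription is known to follow glucose through the factors MondoA and MLX, whereas TXN, TXNRD1, SRXN1 and PRDX1 are textbook targets of the oxidant-responsive factor NRF2.

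The 82 wells held 692446 to 1895735 counts each (median 1293615), and the 10 genes took 0.6685 to 1.202% of them. Basal airway keratins were present, with all 7 basal markers at a mean of 5 CPM or more. Fibroblast markers summed to 0 to 15.84 CPM, endothelial markers to 0 to 5.424 CPM with VWF at 0 in every well, and leukocyte markers to 9.571 to 46.27 CPM. Of the latter CD68 averaged 18.39 CPM and LYZ 3.858 CPM, while PTPRC was at 0 in 78 of 82 wells. In DMSO the overexpressed genes stood above HCRED, with NFE2L2 at 151.6 against 44.76 CPM, FGFR1 at 22.89 against 4.054, NRG1 at 107.7 against 0.2581 and PIK3CA at 11.89 against 2.175. FAT1 stood at 1.904 CPM in its knockout and 8.349 in GFP. CDKN2A stood at 21.45 CPM in its knockout, 36.72 in GFP and 22.18 in HCRED, and a 3′ tag need not lie in the edited stretch. Each row of the plate carried 1 chemical throughout, and the effect of a chemical and that of its row cannot be told apart. Each population kept the same columns under every chemical, so population and plate position cannot be told apart either. NRF2, NRG1, FAT1 and CDKN2A wells lay in other rows than their HCRED and GFP controls. The study calls its replicates biological, the labels do not say how the cultures were separated, and p-values measure the spread between these wells.

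The genes differed widely in level. TXN, on chromosome 9 (GRCh37 113006090-113018787, minus strand), averaged 4363 CPM over the 82 wells and ranked 47 of all genes. PRDX1 followed at 1963 CPM, then PRDX6 at 1140 CPM, PRDX3, the mitochondrial peroxiredoxin, at 732.9 CPM and TXNRD1 at 192.5 CPM. PRDX2, PRDX5, PRDX4 and TXNIP lay close together at 121, 114, 111.4 and 89.62 CPM. SRXN1 was the rarest at 13.92 CPM, or 4 to 43 molecules a well, so its values carry the most counting error. TXNIP varied most between groups, with the highest group mean 6.45 times the lowest, against 3.48 times for TXNRD1, 3.47 for PRDX4 and 1.34 for PRDX6. The most abundant genes were not the ones that varied most.

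**Figure D1:**
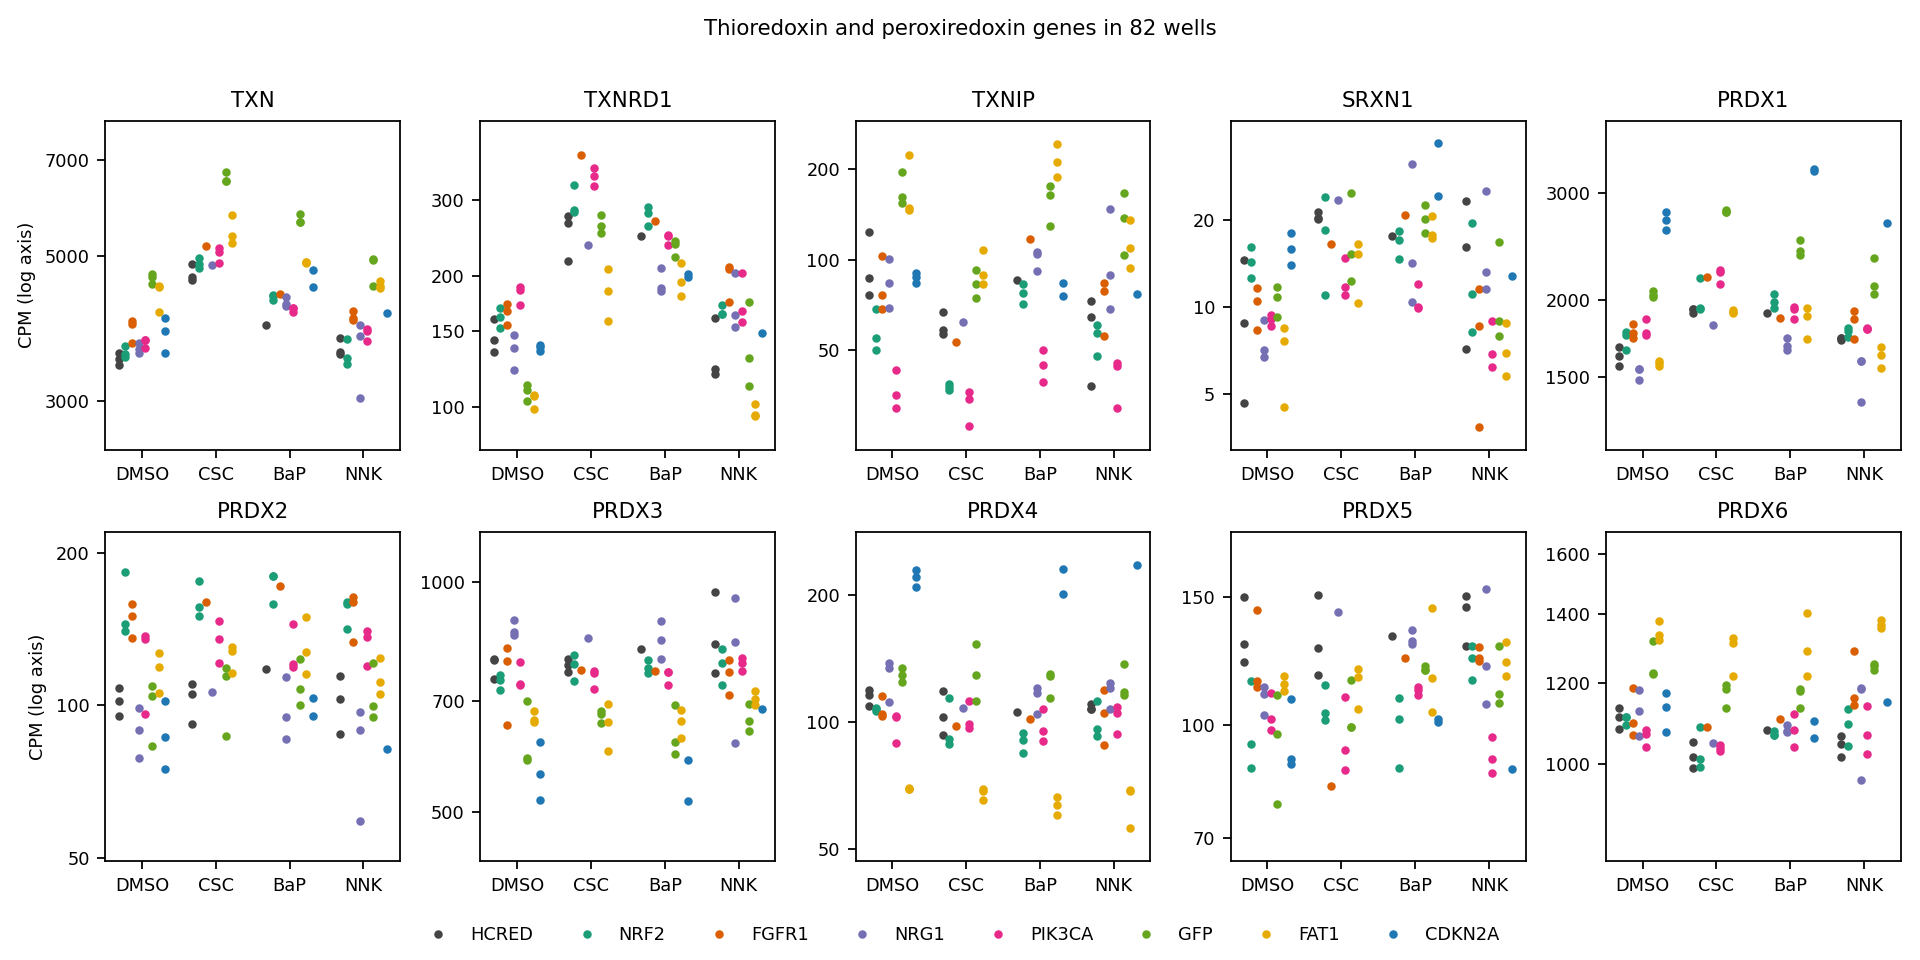
CPM on a log axis of each gene in each of the 82 wells, by chemical, with a point for each well colored by population. TXN and TXNRD1 wells of every population read in CSC or BaP sit above its DMSO wells, and PRDX4 separates by population, with CDKN2A wells above 200 CPM and FAT1 wells near 70 CPM or lower.

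Promoter sequence is shown for TXNRD1, whose rise under CSC and BaP was separated in every population, and for TXNIP, which went down under CSC. The RefSeq promoter table held entries for 8 of the 10 genes (PRDX1 and PRDX6 were not among them), and the 250 bases before each start were searched on both strands. An antioxidant response element core (TGAC, any 3 bases and GC, the sequence through which NRF2 acts, which shares TGAC with AP-1 sites) lay in both TXNRD1 entries and in no entry of the other members, SRXN1 included, and 10.9% of all 35116 promoters of that length held it. The core of the element bound by the aryl hydrocarbon receptor (TNGCGTG) lay in a TXNIP and a PRDX5 entry and in 4.52% of all promoters. A carbohydrate response element, written here as CACGNG, 5 bases and CACGNG again, lay in the first TXNIP entry and in 16 of all promoters, or 0.0456%. The second TXNIP entry (chr1:145439075-145439324) held no match to any of these elements and is not printed. A match is a description of letters and not a bound site. The sequences follow 5′ to 3′ in GRCh37, with matches in capitals.
TXNRD1, first start, chr12:104609307-104609556, plus strand, antioxidant core in capitals: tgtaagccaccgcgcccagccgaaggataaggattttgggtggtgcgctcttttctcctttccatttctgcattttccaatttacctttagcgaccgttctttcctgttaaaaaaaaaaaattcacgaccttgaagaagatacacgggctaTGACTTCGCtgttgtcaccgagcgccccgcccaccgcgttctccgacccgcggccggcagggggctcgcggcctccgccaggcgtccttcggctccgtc
TXNRD1, second start, chr12:104680560-104680809, plus strand, antioxidant core on the other strand in capitals: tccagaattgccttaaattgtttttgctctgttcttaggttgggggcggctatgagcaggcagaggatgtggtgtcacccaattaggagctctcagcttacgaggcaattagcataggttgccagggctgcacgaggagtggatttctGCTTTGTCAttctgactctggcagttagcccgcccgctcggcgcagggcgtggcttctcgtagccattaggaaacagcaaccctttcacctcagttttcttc
TXNIP, chr1:145438240-145438489, plus strand, carbohydrate element and then aryl hydrocarbon receptor core in capitals: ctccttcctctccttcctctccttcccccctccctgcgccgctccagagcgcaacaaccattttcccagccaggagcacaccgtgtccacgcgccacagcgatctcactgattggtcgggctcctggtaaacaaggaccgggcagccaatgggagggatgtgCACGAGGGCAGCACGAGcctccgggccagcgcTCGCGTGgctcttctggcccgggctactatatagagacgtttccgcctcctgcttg
The antioxidant cores ended 91 and 94 bases before the TXNRD1 starts, and the carbohydrate element of TXNIP spanned bases 88 to 72 before its first start.

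CSC was compared with DMSO in the 5 populations with 3 wells of each (HCRED, PIK3CA, GFP, NRF2 and FAT1, 30 wells), to ask which of these genes respond to whole smoke condensate. TXN, TXNRD1, SRXN1 and PRDX1 rose, while TXNIP and PRDX6 fell. Thus 6 of the 10 genes passed limma's test at an adjusted p of 0.05, against 5.82% of all genes tested. The other 4 peroxiredoxins, PRDX2, PRDX3, PRDX4 and PRDX5, had log2 changes between -0.05 and 0.08 and did not pass.

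TXNRD1, the enzyme that regenerates thioredoxin, showed the steepest rise of the 10 under CSC. In DMSO its wells read 133.5, 142.7 and 159.5 CPM in HCRED, 171.8, 186.2 and 188.8 in PIK3CA, and 103.2, 109.2 and 112.1 in GFP. In CSC the same populations read 216.7, 266.1 and 275.3, then 323.9, 340.0 and 356.3, and 252.1, 261.8 and 276.5. NRF2 wells went from 152.0, 161.2 and 169.2 to 281.2, 285.0 and 325.3 CPM, and FAT1 wells from 98.76, 106.0 and 106.5 to 157.7, 184.8 and 207.4. Within each of the 5 populations every CSC well stood above every DMSO well. The fitted log2 change was 0.93 ± 0.05 (SE, limma, adjusted p = 4.6e-28), or 1.9-fold (95% interval 1.78 to 2.02), and by population it ran from 1.72-fold in FAT1 to 2.39-fold in GFP.

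TXN, its substrate, started from a far higher level. It read 3403 to 4681 CPM (median 3720) in the DMSO wells of these populations and 4587 to 6700 CPM (median 5061) in the CSC wells. The pooled ranges met where GFP wells in DMSO stood above the lowest HCRED wells in CSC, and within each population every CSC well stood above every DMSO well. The log2 change was 0.42 ± 0.02 (limma, adjusted p = 1.93e-28), 1.34-fold. PRDX1, a cytosolic peroxiredoxin that thioredoxin resets, read 1558 to 2074 CPM (median 1752) in DMSO and 1905 to 2811 CPM (median 1944) in CSC, and it too was separated in all 5 populations. Its log2 change was 0.30 ± 0.02 (limma, adjusted p = 1.89e-19). TXN, TXNRD1 and PRDX1 were the 3 members with every CSC well above every DMSO well in all 5 populations, a pattern that 0.431% of tested genes showed.

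SRXN1 rose from 4.531 to 16.19 CPM (median 9.232) in DMSO to 10.3 to 24.75 CPM (median 15.3) in CSC, with a log2 change of 0.70 ± 0.14 (limma, adjusted p = 0.000391). NRF2 wells overlapped between the chemicals, and the wells of the other 4 populations did not. PRDX6, a peroxiredoxin with a single active cysteine, fell by 0.08 on the log2 scale (SE 0.03, limma, adjusted p = 0.0367). The call for PRDX6 held in 6 of 16 alternative settings and was lost without the wells numbered 1 (-0.05, adjusted p = 0.337) or 3 (-0.08, adjusted p = 0.176).

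TXNIP, the inhibitor of thioredoxin, moved the other way. Its DMSO wells read 76.16, 86.77 and 123.1 CPM in HCRED, 154.5, 161.3 and 195.6 in GFP, 49.98, 55.09 and 68.72 in NRF2, and 146.6, 148.4 and 222.8 in FAT1. The CSC wells of the same populations read 56.9, 58.48 and 66.94, then 74.5, 82.8 and 92.59, then 36.9, 37.75 and 38.82, and 83.25, 88.69 and 107.6. All CSC wells lay below all DMSO wells in these 4 populations. PIK3CA, where TXNIP was already lowest, overlapped, at 32.22, 35.71 and 43.06 CPM in DMSO and 28.05, 34.63 and 36.49 in CSC. The pooled log2 change was -0.75 ± 0.08 (limma, adjusted p = 1.94e-12), 0.594 of the DMSO level, and by population it ran from 0.921 in PIK3CA to 0.484 in GFP. The CSC change was not shown to differ among populations for TXNIP (F = 4.04, limma, adjusted p = 0.671).

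**Figure D2:**
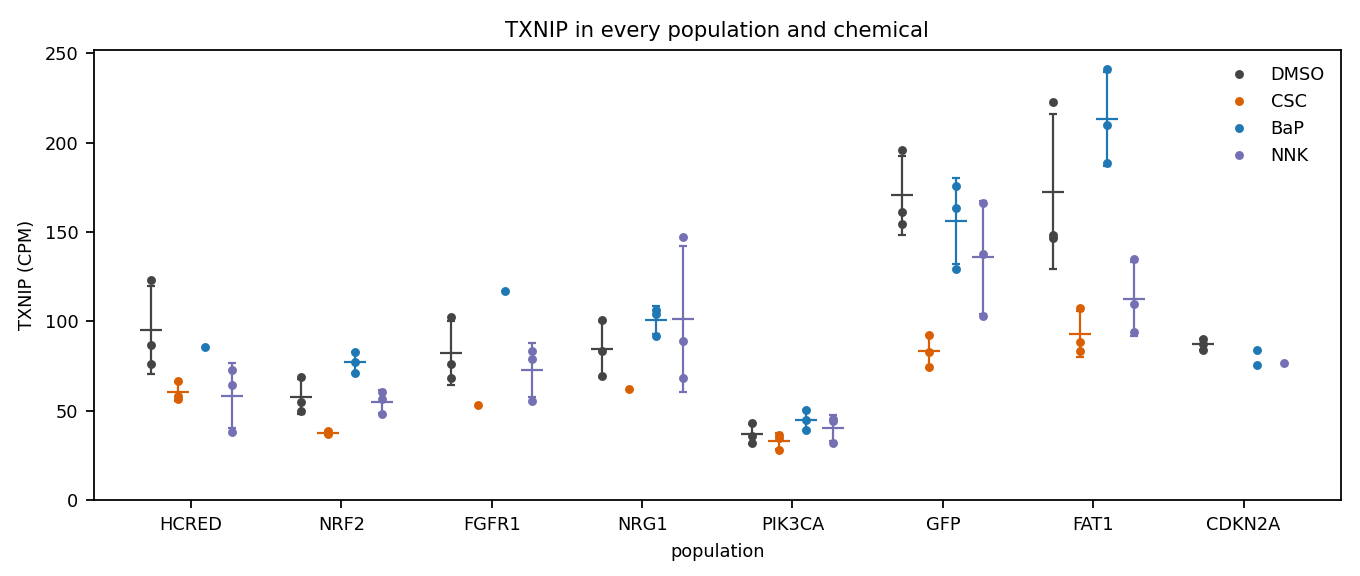
TXNIP in CPM in every population and chemical, with a point for each well and, where a group has 3 wells, its mean and SD. CSC wells lie below DMSO wells in HCRED, NRF2, GFP and FAT1, while PIK3CA wells stay between 28.05 and 50.29 CPM in all 4 chemicals.

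BaP, a single polycyclic hydrocarbon of smoke, was compared with DMSO in PIK3CA, GFP, NRF2, NRG1 and FAT1. TXN, TXNRD1, TXNIP, SRXN1, PRDX1, PRDX2 and PRDX5 all rose and no member fell. These 7 of 10 stand against 9.11% of all genes tested, and the comparisons of CSC, BaP and NNK share their DMSO wells. TXN, TXNRD1 and PRDX1 again had every BaP well above every DMSO well in all 5 populations, which 0.433% of tested genes did.

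TXNRD1 read 98.76 to 188.8 CPM (median 136.4) in these DMSO wells and 180.0 to 288.7 CPM (median 236.4) in BaP, a log2 change of 0.76 ± 0.05 (limma, adjusted p = 7.05e-21). SRXN1 went from 4.531 to 16.19 CPM (median 9.118) to 9.906 to 31.3 CPM (median 17.27), a log2 change of 0.82 ± 0.14 (adjusted p = 1.22e-05). Both genes gained more than TXN and PRDX1. TXN went from a median of 3720 to 4340 CPM, a log2 change of 0.26 ± 0.02 (adjusted p = 2.34e-21), and PRDX1 from a median of 1752 to 1940 CPM, a log2 change of 0.22 ± 0.02 (adjusted p = 7.18e-16). The smaller calls were less stable. PRDX5, found in mitochondria, peroxisomes and cytosol, rose by 0.19 ± 0.05 on the log2 scale (adjusted p = 0.0115), which was lost without the wells numbered 1 (0.17, adjusted p = 0.078) or 3 (0.17, adjusted p = 0.119). PRDX2, abundant in red cells, rose by 0.17 ± 0.06 (adjusted p = 0.0385), which held in 8 of 17 alternative settings and was lost without the wells numbered 2 (0.08, adjusted p = 0.624) or 3 (0.19, adjusted p = 0.0733).

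The size of the TXNRD1 response to BaP differed among populations (F = 10.14, limma, adjusted p = 0.00271), the single member to do so against 0.115% of genes tested. Its BaP level was 2.23-fold its DMSO level in GFP, 1.93-fold in FAT1, 1.76-fold in NRF2, 1.44-fold in NRG1 and 1.39-fold in PIK3CA. GFP and FAT1, with the largest gains, were the populations with the lowest TXNRD1 in DMSO, at 108.2 ± 4.55 and 103.7 ± 4.33 CPM (SD, n = 3), and PIK3CA, with the smallest, had the highest at 182.3 ± 9.14 CPM. NRF2 and NRG1 did not follow this order, with 1.76-fold from 160.8 CPM and 1.44-fold from 134.9 CPM. The DMSO level is also the base of each fold, so level and gain are not independent. In BaP the wells read 221.8, 237.4 and 241.4 CPM in GFP, 180.0, 193.8 and 214.3 in FAT1, and 236.4, 247.6 and 249.2 in PIK3CA. GFP and PIK3CA, separated in DMSO, overlapped in BaP. The call was lost without the wells numbered 1 (F = 5.92, adjusted p = 0.263) or 2 (F = 6.12, adjusted p = 0.091), and also without the GFP or the PIK3CA population.

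TXNIP under BaP rose by 0.24 ± 0.06 on the log2 scale (limma, adjusted p = 0.00955). NRF2 wells were separated, at 71.21, 77.28 and 82.84 CPM in BaP against 49.98, 55.09 and 68.72 in DMSO, while the wells of PIK3CA, GFP, NRG1 and FAT1 overlapped. Without the wells numbered 2 the change was 0.13 (adjusted p = 0.431), and the call was also lost without the NRF2 or the FAT1 population. In the 4 populations with 3 wells of both chemicals, CSC and BaP could be compared directly, though the doses were given as mass and as molarity and are not matched. TXNIP in CSC was 0.489 of its level in BaP (log2 -1.03 ± 0.08, limma, adjusted p = 6.41e-17), with every CSC well below every BaP well in all 4 populations. TXN was 1.11-fold higher in CSC (log2 0.14 ± 0.02, adjusted p = 1.31e-06). These 2 of 10 stand against 4.58% of genes tested. For TXNRD1 the CSC level was 1.09-fold that in BaP with a 95% interval of 1.01 to 1.17 (adjusted p = 0.214), and for SRXN1 it was 0.875-fold with an interval of 0.728 to 1.05 (adjusted p = 0.537).

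NNK, a tobacco nitrosamine, was compared with DMSO in all populations except CDKN2A (42 wells). PRDX5 alone passed, 1 of 10 against 7.22% of all genes tested, with a log2 change of 0.17 ± 0.06 (limma, adjusted p = 0.0462). Its wells read 78.05 to 150.0 CPM (median 111.6) in DMSO and 86.13 to 153.9 CPM (median 122.8) in NNK. The ranges overlapped almost fully. NRF2 wells were separated upward, from 87.35, 94.32 and 115.0 to 115.5, 124.0 and 128.6 CPM, as were FAT1 wells, and PIK3CA wells were separated downward, from 98.71, 102.0 and 110.9 to 86.13, 89.93 and 96.54. The PRDX5 call was lost without the wells numbered 1 (0.11, adjusted p = 0.48) or 3 (0.20, adjusted p = 0.113), and without the HCRED, GFP, FGFR1, NRF2 or FAT1 population. TXNRD1 (0.15 ± 0.05, adjusted p = 0.0763) and TXNIP (-0.20 ± 0.08, adjusted p = 0.0919) did not pass.

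A single well decided much of the NNK result. The well labelled NRG1, NNK, replicate 2 read 3029 CPM of TXN and 1363 CPM of PRDX1, the lowest of all 82 wells for both genes, where its companions read 3763 and 3920 CPM of TXN. Without it 7 of 10 members passed, and the share of all genes called rose with them, from 7.22 to 19.8%. TXN (0.13), TXNRD1 (0.15), PRDX1 (0.13), PRDX3 (0.14), PRDX5 (0.18) and PRDX6 (0.09) were higher and TXNIP (-0.25) was lower, with limma adjusted p-values from 2.25e-07 to 0.0062. For TXN, TXNRD1 and PRDX1 these changes were smaller than those under CSC and BaP. In the direct comparison of BaP with NNK, which kept that well, 4 of 10 were higher in BaP against 0.996% of genes tested. They were TXNRD1 (log2 0.62 ± 0.06, limma, adjusted p = 2.25e-11), SRXN1 (0.65 ± 0.15, adjusted p = 0.00596), TXNIP (0.39 ± 0.08, adjusted p = 0.00167) and TXN (0.20 ± 0.06, adjusted p = 0.0487). TXNRD1 kept the call without the wells of any replicate number, whereas SRXN1 lost it without the wells numbered 1 (0.61, adjusted p = 0.208) or 3 (0.61, adjusted p = 0.272), TXNIP without those numbered 3 (0.30, adjusted p = 0.314) and TXN without those numbered 1 (0.25, adjusted p = 0.303) or 3 (0.24, adjusted p = 0.381).

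**Figure D3:**
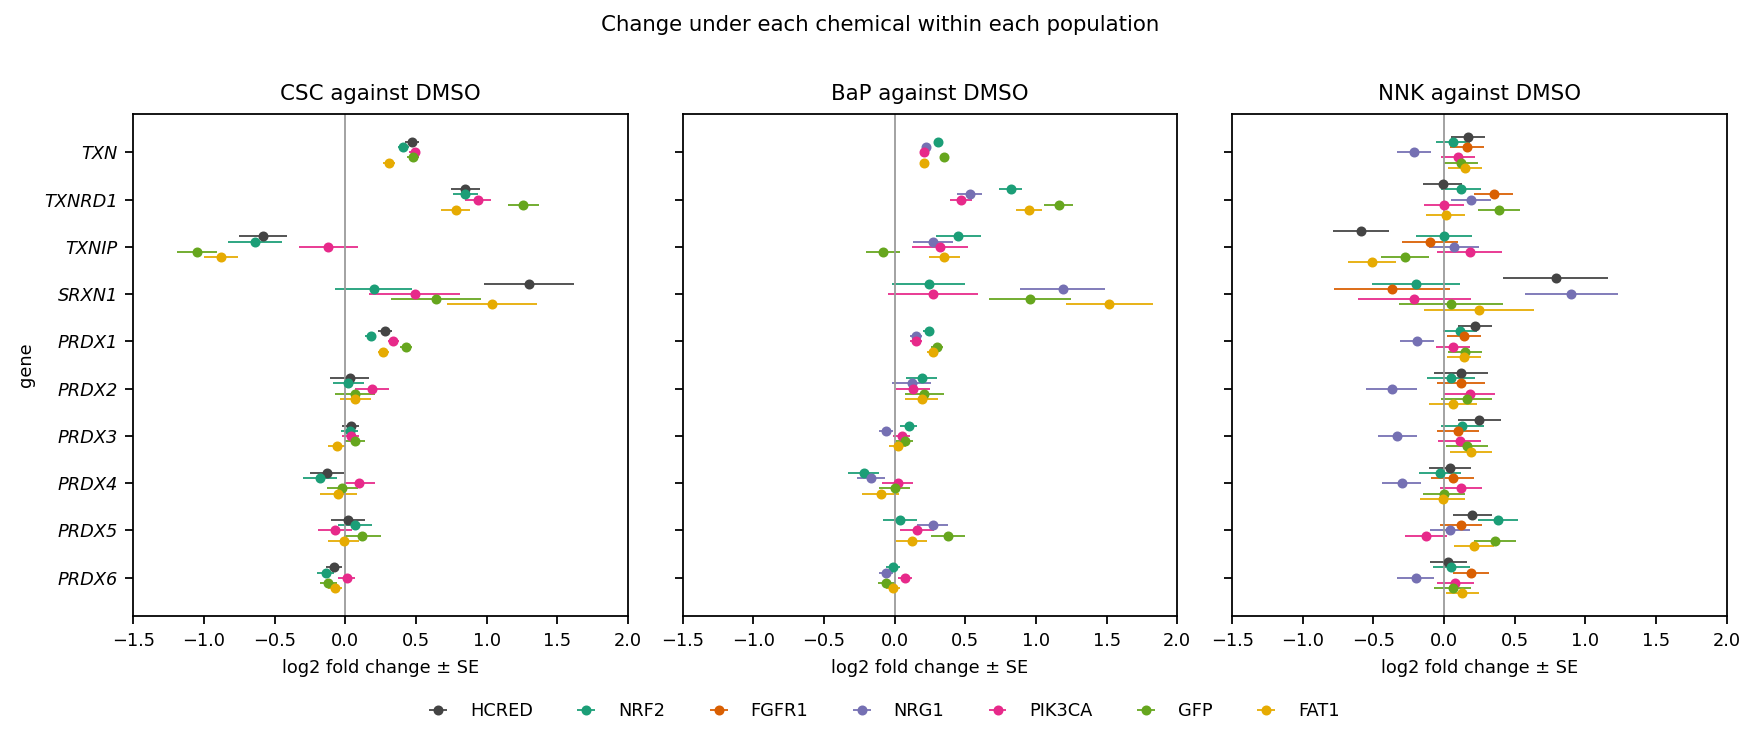
Log2 fold change with its SE of each gene under CSC, BaP and NNK against DMSO, with a point for each population of 3 wells in both chemicals. TXNRD1 lies right of 0 in every population under CSC and BaP and reaches 1.26 in GFP under CSC, while TXNIP lies left of 0 under CSC and, except in GFP, right of it under BaP.

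The remaining genes of the pathway were read from lists around the members. The mitochondrial and testis counterparts TXN2, TXNRD2 and TXNRD3 gave 0 of 3 calls under each chemical, with TXN2 at 80.44 CPM in CSC and 84.69 in DMSO, and the sestrins gave 0 of 3. TXNRD2 and TXNRD3 averaged only 1.593 and 1.278 CPM over the 82 wells. SESN1, SESN2 and SESN3 averaged 2.675, 2.675 and 6.176 CPM, and a change in such low counts could be missed. Among 8 other peroxide and superoxide enzymes, 3 were higher under CSC, 4 under BaP and 1 under NNK, and none was lower. GPX2, the epithelial glutathione peroxidase, rose by 1.39 ± 0.12 on the log2 scale under CSC (limma, adjusted p = 1.28e-15), 1.39 ± 0.13 under BaP (adjusted p = 5.84e-13) and 0.44 ± 0.12 under NNK (adjusted p = 0.013). SOD1, cytosolic superoxide dismutase, rose by 0.20 ± 0.02 under CSC (adjusted p = 1.35e-11) and 0.16 ± 0.02 under BaP (adjusted p = 5.05e-08). Of 4 glutaredoxins, the parallel glutathione-driven reductases, GLRX alone was called, higher under CSC (0.46 ± 0.06, adjusted p = 6.19e-10), BaP (0.39 ± 0.05, adjusted p = 1.39e-08) and NNK (0.22 ± 0.06, adjusted p = 0.0175).

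Among 8 clients of thioredoxin the sole call was RRM2, a ribonucleotide reductase subunit that cycling cells make, which was lower under CSC (-0.40 ± 0.07, limma, adjusted p = 2.08e-05), BaP (-0.23 ± 0.07, adjusted p = 0.0295) and NNK (-0.32 ± 0.07, adjusted p = 0.000782). Of 7 tested relatives with a thioredoxin fold, TXNDC17 was lower under BaP (-0.14 ± 0.02, adjusted p = 1.12e-05). Of 4 tested relatives and regulators of TXNIP, MLX was higher under CSC (0.29 ± 0.07, adjusted p = 0.00123) and BaP (0.25 ± 0.07, adjusted p = 0.02), and the arrestin ARRDC3 under BaP (0.34 ± 0.10, adjusted p = 0.0144). Whether MLX or ARRDC3 had a part in the TXNIP changes was not tested. Of 5 tested genes for NRF2 and its regulators, MAFG, a partner of NRF2 on DNA, was higher under CSC (1.01 ± 0.23, adjusted p = 0.00176), and NFE2L2 itself did not pass under CSC (0.07 ± 0.07, adjusted p = 0.701) or BaP (0.18 ± 0.07, adjusted p = 0.116). MAFG was rare, at a mean of 4.022 CPM. The keratins KRT5 and KRT14 were lower under CSC (0.728- and 0.545-fold), BaP (0.789- and 0.515-fold) and NNK (0.845- and 0.782-fold), and CD68 was higher under CSC (1.84-fold) and BaP (1.34-fold). Their part in the results on the members was not tested.

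Populations were compared in DMSO with their own control, 3 wells against 3. The overexpressing populations thus share the HCRED wells and the knockouts the GFP wells. Of the 8 populations in DMSO, HCRED had the lowest mean of TXN (3479 CPM) and the highest of PRDX5 (133.9 CPM). In NRF2, 5 of 10 genes passed against 4.92% of all genes tested, with TXN, PRDX1 and PRDX2 higher and TXNIP and PRDX5 lower. PRDX2 moved most among those that rose. Its wells read 140.1, 144.9 and 183.4 CPM in NRF2 and 95.26, 101.8 and 108.1 in HCRED, and the groups did not overlap. The log2 change was 0.69 ± 0.11 (limma, adjusted p = 9.86e-07), 1.61-fold (95% interval 1.4 to 1.87). PRDX2 in NRF2 also stood above HCRED in every well in CSC (means 160.8 and 102.5 CPM) and in NNK (153.1 and 101.7 CPM). The NRF2 targets TXNRD1 and SRXN1 did not pass in DMSO. TXNRD1 read 152.0, 161.2 and 169.2 CPM in NRF2 against 133.5, 142.7 and 159.5 in HCRED, with overlap, and 1.18-fold (interval 1.04 to 1.34, adjusted p = 0.168). Its NRF2 wells all stood above HCRED in CSC (ratio of means 1.18) and in NNK (1.24). With DMSO, CSC and NNK wells fitted together the TXNRD1 change was 0.28 ± 0.06 on the log2 scale (limma, adjusted p = 0.000522). SRXN1 read 12.59, 14.29 and 16.19 CPM in DMSO against 4.647, 8.824 and 14.55, with overlap, and 1.80-fold (interval 1.17 to 2.76, adjusted p = 0.128). It overlapped in CSC (ratio of means 0.868) and in NNK (0.831) as well.

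TXN and PRDX1 were 1.09- and 1.14-fold higher in NRF2 (limma, adjusted p = 0.000406 and 0.000181). The CPM wells of both overlapped HCRED, at 3499, 3534 and 3641 against 3403, 3478 and 3556 for TXN and 1658, 1757 and 1772 against 1558, 1622 and 1679 for PRDX1. The fitted change is taken after TMM scaling, and the plain ratios of means were 1.02 and 1.07. The TXN call was lost with edgeR (adjusted p = 0.0587), and both were lost with 1 limma fit over all groups (adjusted p = 0.625 for TXN and 0.319 for PRDX1). TXNIP read 49.98, 55.09 and 68.72 CPM against 76.16, 86.77 and 123.1, without overlap (log2 -0.60 ± 0.14, adjusted p = 0.00235). Without HCRED replicate 3 its change was -0.39 (adjusted p = 0.126). TXNIP in NRF2 lay below HCRED in every well in CSC too (ratio of means 0.622), but the wells overlapped in NNK (0.943). PRDX5 was lower as well (-0.35 ± 0.11, adjusted p = 0.0472), a call that was lost without NRF2 replicate 1 (-0.26, adjusted p = 0.287) or 3 (-0.33, adjusted p = 0.16), or HCRED replicate 2 (-0.28, adjusted p = 0.275) or 3 (-0.36, adjusted p = 0.0642).

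Whether NRF2 overexpression changed the CSC response was asked through the interaction with HCRED. By limma 0 of 10 members passed, against 0.231% of genes, and edgeR and DESeq2 also gave 0. At an unadjusted p of 0.05 there was 1, close to the 6.01% of all genes, namely SRXN1, whose CSC gain was smaller in NRF2 (log2 difference -1.10 ± 0.42, limma, adjusted p = 0.608). Its wells read 10.99, 18.49 and 24.1 CPM in NRF2 with CSC and 20.13, 20.31 and 21.27 in HCRED with CSC. The CSC levels overlapped, and the DMSO levels were those given for each population. For TXNRD1 the interaction was 0.997-fold with a 95% interval of 0.83 to 1.2. Among the 5 populations compared in CSC the response differed for 0 members by limma, against 0.106% of genes, and for 0 by edgeR, with 4 at an unadjusted p of 0.05 against 5.87% of genes. Among the 7 populations compared in NNK it differed for 0 members, against 0.0176%, and for 0 by edgeR, with 1 at an unadjusted p of 0.05 against 6.22%.

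FGFR1, a growth factor receptor, gave 1 of 10 calls against 0.905% of genes, again PRDX2. Its wells read 135.8, 150.1 and 158.6 CPM, all above the 3 HCRED wells, with a log2 change of 0.53 ± 0.14 (limma, adjusted p = 0.0194). The call was lost without FGFR1 replicate 1 (0.46, adjusted p = 0.263) or 2 (0.48, adjusted p = 0.128), or without HCRED replicate 1 (0.53, adjusted p = 0.147), 2 (0.56, adjusted p = 0.0886) or 3 (0.50, adjusted p = 0.209). Without FGFR1 replicate 3, TXN (0.22, adjusted p = 1.65e-19) and PRDX1 (0.19, adjusted p = 1.31e-05) passed as well. In NNK the 3 FGFR1 wells stood at 133.3, 159.7 and 163.2 CPM of PRDX2, again all above HCRED at 87.87, 102.8 and 114.3. NRG1, a ligand of ERBB receptors, gave 2 of 10 calls against 3.1% of genes. PRDX3 read 853.7, 860.5 and 893.3 CPM in NRG1 and 747.1, 792.3 and 794.1 in HCRED, without overlap (log2 0.24 ± 0.05, adjusted p = 0.000362), and TXN was 1.10-fold higher (adjusted p = 2.44e-05), with CPM wells that met near 3556. With NNK wells added, neither call held, at 0.00 ± 0.15 for PRDX3 and -0.01 ± 0.13 for TXN. The added wells include NRG1 NNK replicate 2, described above, and NRG1 wells in NNK ran from 615.6 to 952.8 CPM of PRDX3. This comparison was not fitted without that well.

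PIK3CA, the catalytic subunit of a lipid kinase in growth signalling, gave 4 of 10 calls against 5.37% of genes, with TXN, TXNRD1 and PRDX1 higher and TXNIP lower. TXNIP read 32.22, 35.71 and 43.06 CPM against 76.16, 86.77 and 123.1 in HCRED, without overlap, and 0.414 of the control level (95% interval 0.333 to 0.514, limma, adjusted p = 3.52e-09). It was the lowest TXNIP of the 8 populations in DMSO, separated from the next, NRF2, by a gap between 43.06 and 49.98 CPM. In CSC every PIK3CA well again lay below HCRED (ratio of means 0.544), but the wells overlapped in NNK (0.695). TXNRD1 was 1.31-fold higher (adjusted p = 0.00458), with 171.8, 186.2 and 188.8 CPM all above HCRED, though without HCRED replicate 1 it missed the threshold (0.34, adjusted p = 0.0515). TXN was 1.11-fold (adjusted p = 0.000148) and PRDX1 1.16-fold higher (adjusted p = 0.000194), each with every well above HCRED. Without PIK3CA replicate 2, PRDX2 also passed (0.48, adjusted p = 0.00393). PRDX5 did not pass in DMSO (-0.31, adjusted p = 0.0838), though its PIK3CA wells all lay below HCRED in each of the 3 chemicals compared. With DMSO, CSC and NNK wells fitted together, PRDX5 (-0.43, limma, adjusted p = 1.44e-06) and PRDX2 (0.38, adjusted p = 5.1e-05) both passed. In the same cells the basal keratins KRT5, KRT14 and KRT17 stood at 0.536, 0.419 and 0.365 of HCRED, and their part in these results was not tested.

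**Figure D4:**
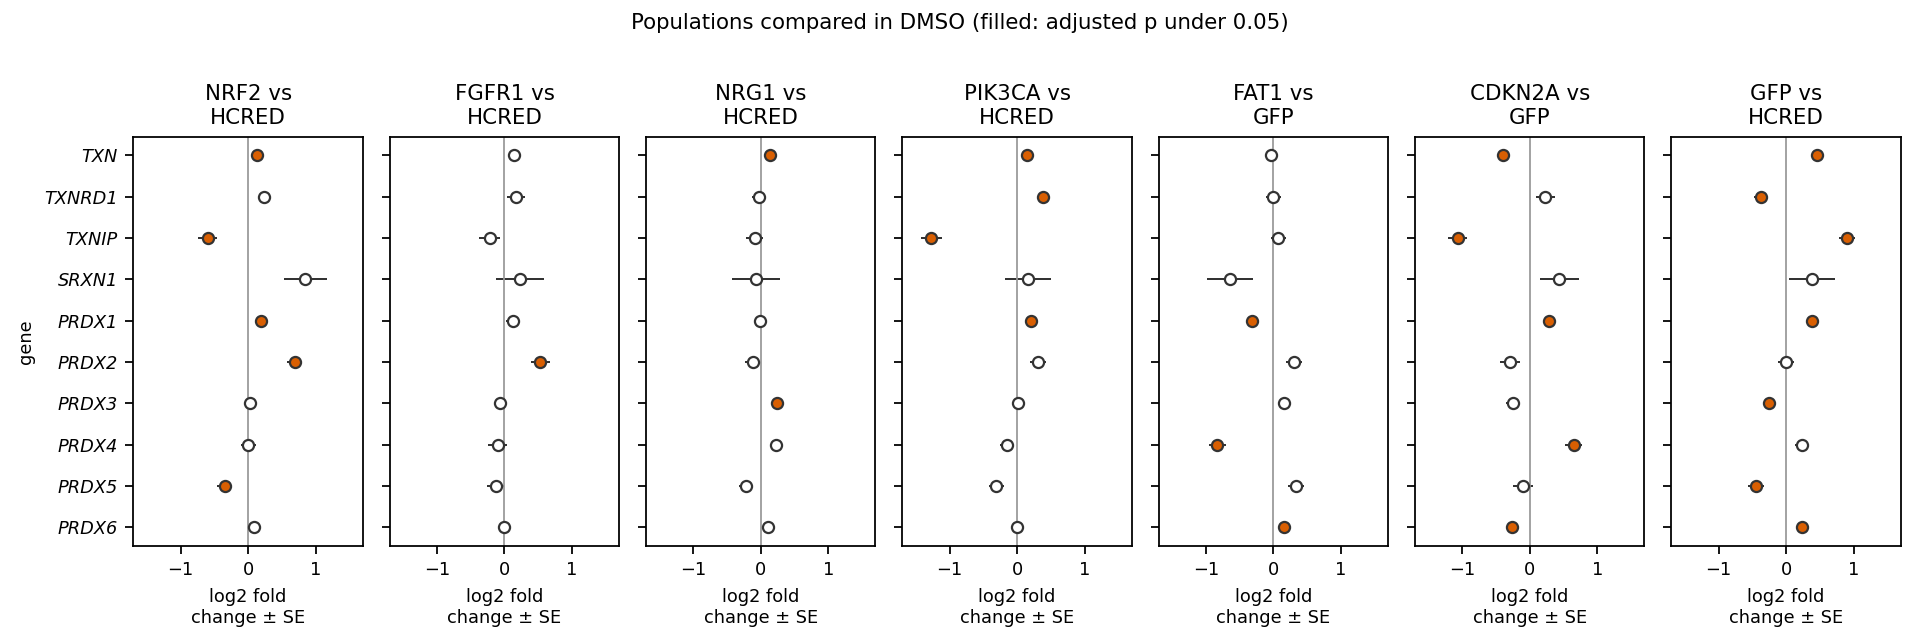
Log2 fold change with its SE of each gene between populations in DMSO, 3 wells against 3, filled where the limma adjusted p was under 0.05. PRDX4 lies at -0.83 in FAT1 and 0.65 in CDKN2A against GFP, and TXNIP at -1.27 in PIK3CA and 0.90 in GFP against HCRED.

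The control populations differed from each other in 7 of 10 genes, against 10.8% of all genes. GFP stood above HCRED for TXN (1.38-fold, limma, adjusted p = 1.65e-22), TXNIP (1.86-fold, adjusted p = 2.77e-07), PRDX1 (1.31-fold, adjusted p = 7.34e-13) and PRDX6 (1.17-fold, adjusted p = 8.88e-05). It stood below for TXNRD1 (0.773-fold, adjusted p = 0.0138), PRDX3 (0.834-fold, adjusted p = 0.000857) and PRDX5 (0.733-fold, adjusted p = 0.00656). TXN, the clearest, read 4530, 4642 and 4681 CPM in GFP and 3403, 3478 and 3556 in HCRED, far apart. The knockouts were therefore set against GFP only. For TXNRD1 the groups overlapped in CSC and in NNK, with a ratio of means of 1.04 in each. With DMSO, CSC and NNK wells fitted together its log2 change was -0.09 (limma, adjusted p = 0.393). The TXNRD1 call was also lost without GFP replicate 1 (-0.35, adjusted p = 0.0548) or HCRED replicate 3 (-0.29, adjusted p = 0.125), and the PRDX5 call without GFP replicate 1 (-0.33, adjusted p = 0.0917) or HCRED replicate 2 (-0.36, adjusted p = 0.0783).

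The FAT1 knockout (FAT1 is a large cadherin of the cell surface) gave 3 of 10 calls against 14.1% of genes, a share not far from the background. PRDX4, the peroxiredoxin of the endoplasmic reticulum, read 69.09, 69.44 and 69.83 CPM in FAT1 and 124.2, 128.8 and 134.2 in GFP. The groups were far apart, at 0.561 of the GFP level (95% interval 0.477 to 0.660, limma, adjusted p = 2.59e-08). The same order held in each chemical, with ratios of the means of 0.514 in CSC, 0.51 in BaP and 0.521 in NNK, and every FAT1 well below every GFP well. PRDX1 fell to 1563, 1581 and 1590 CPM from 2027, 2040 and 2074, also without overlap (0.803-fold, adjusted p = 1.1e-09), and it too was lower in every well of all 4 chemicals. PRDX6 read 1322, 1336 and 1377 CPM against 1223, 1227 and 1319, all wells higher (log2 0.16 ± 0.05, adjusted p = 0.0167). The PRDX6 call was lost without FAT1 replicate 3 (0.15, adjusted p = 0.054) or GFP replicate 2 (0.16, adjusted p = 0.0648) or 3 (0.15, adjusted p = 0.11). Other members passed when 1 well was left out, PRDX3 without FAT1 replicate 1 (0.19, adjusted p = 0.0251) or GFP replicate 3 (0.25, adjusted p = 0.019), PRDX2 without FAT1 replicate 2 (0.39, adjusted p = 0.0286) or GFP replicate 3 (0.40, adjusted p = 0.0373) and PRDX5 without GFP replicate 3 (0.46, adjusted p = 0.0146). NFE2L2 was itself lower in FAT1 than in GFP (0.554-fold, adjusted p = 9.99e-05).

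The CDKN2A knockout (CDKN2A encodes cell cycle inhibitors) gave 5 of 10 calls against 17.9% of genes, with PRDX1 and PRDX4 higher and TXN, TXNIP and PRDX6 lower than in GFP. PRDX4 read 209.2, 220.6 and 229.7 CPM, all above the GFP wells and above every DMSO well of the other 7 populations (1.57-fold, 95% interval 1.32 to 1.87, limma, adjusted p = 5.15e-05). TXNIP read 83.93, 87.58 and 90.01 CPM against 154.5, 161.3 and 195.6, without overlap (0.477-fold, adjusted p = 1.24e-09). PRDX4 was thus highest in CDKN2A and lowest in FAT1. TXN read 3555, 3840 and 4022 CPM against 4530, 4642 and 4681, again without overlap (0.762-fold, adjusted p = 2.3e-05). PRDX1 read 2615, 2716 and 2793 CPM, the highest of the 8 populations in DMSO (1.22-fold, adjusted p = 0.00571), a call that was lost without CDKN2A replicate 1 (0.24, adjusted p = 0.07) or GFP replicate 1 (0.31, adjusted p = 0.0515) or 3 (0.31, adjusted p = 0.0539). PRDX6 (-0.27 ± 0.09, adjusted p = 0.0317) lost its call without GFP replicate 1 (-0.21, adjusted p = 0.286), 2 (-0.27, adjusted p = 0.123) or 3 (-0.28, adjusted p = 0.128). Without CDKN2A replicate 2, TXNRD1 passed (0.31, adjusted p = 0.0352), and without replicate 3, PRDX3 (-0.33, adjusted p = 0.042). KRT5 and KRT14 stood at 0.606 and 0.53 of GFP in the same cells, and EPCAM, an epithelial adhesion protein, at 2.43-fold.

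The levels of the genes were last compared across the 25 groups of 3 wells, as Pearson correlations of mean log2 CPM that share the libraries and their depth and are given as a description. Among 3358 genes of at least 20 CPM, TXN ran closest to PTGR1, a reductase (r = 0.94), and TXNRD1 to the quinone reductase NQO1 (0.88) and the ferritin chain FTL (0.85). SRXN1 ran closest to CYP1B1 (0.77), which metabolizes aromatic hydrocarbons, and PIR (0.76). The genes alike to the other members were TMEM230 for TXNIP (0.87), ARG2 for PRDX1 (0.84), SPA17 for PRDX2 (0.93), CWF19L1 for PRDX3 (0.93), SYAP1 for PRDX4 (0.91), C10orf32 for PRDX5 (0.73) and RPL36 for PRDX6 (0.96). Among the members themselves the pairs most alike were TXNIP with PRDX6 (0.68), TXN with PRDX1 (0.67) and TXNRD1 with SRXN1 (0.55), and the most opposed was PRDX4 with PRDX6 (-0.52). The 10 genes did not move as a single block over these groups.

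Counts of some members could include neighbours. In GRCh37 TXNRD1 overlaps EID3 and RPL18AP3 on its own strand, PRDX2 overlaps HOOK2 and SRXN1 an unnamed gene on theirs, PRDX1 overlaps MMACHC and HMGB1P48 on the opposite strand, and PRDX6 overlaps its antisense gene PRDX6-AS1. Whether strand was used in counting is not given in the sources used here, and reads shared with near-identical pseudogenes cannot be told apart.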

How the data were processed

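The series holds 95 wells of AALE cells read by 3′DGE. Per the study's methods, the authors obtained count matrices from reads aligned with BWA 0.7.10 (submitters' processing notes) to RefSeq transcripts of hg19, and the deposited counts are whole numbers with each molecular identifier counted once per gene and well. Here CPM was computed from each well's total count. Changes were fitted with limma 3.58.1 (voom) after TMM scaling in edgeR 4.0.16 under R 4.3.3, on genes with a mean count above 1, with population as a term where several were pooled, and p-values were adjusted by Benjamini-Hochberg over all genes tested at 0.05. Fold intervals are 95%. Alternatives used edgeR's quasi-likelihood test, DESeq2 1.42.0, other size factors, filters and sets of wells. The code was tested on simulated counts. The members, partner lists and markers were chosen with earlier results of these data known. Named genes were all members, list genes that passed and the 3 genes most alike to a member, of which the text gives the leading ones. Depth, 692446 to 1895735 counts a well, limits SRXN1 most.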

Additional observations from a re-analysis of the deposited data

Results flagged for a closer look

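The wells with 2-digit replicate numbers were outside the comparisons, and the labels do not say whether they were separate cultures. Several stood above all 3 DMSO wells of their population for genes called higher in the comparisons, and those are listed first. For TXN the mean of these wells over the DMSO mean was 1.34 in FGFR1 with CSC, 1.25 in CDKN2A with CSC, 1.31 in NRG1 with CSC, 1.15 in HCRED with BaP and 1.23 in FGFR1 with BaP. For TXNRD1 the ratios in the same order were 2.17, 1.61, 2.03, 1.51 and 1.77, and for PRDX1 they were 1.29, 1.3, 1.17, 1.13 and 1.09. SRXN1 gave 1.53 in FGFR1, 1.35 in CDKN2A and 2.79 in NRG1 with CSC and 1.96 in HCRED with BaP. In HCRED with BaP, PRDX2 gave 1.2 and PRDX5 gave 1.14. Other called genes were mixed. Under CSC, TXNIP lay below all DMSO wells in FGFR1 (0.427) and CDKN2A (0.526) and overlapped in NRG1 (0.845). PRDX6, called lower under CSC, stood above all DMSO wells in CDKN2A (1.07) and overlapped in FGFR1 (1.01) and NRG1 (0.962). In FGFR1 with BaP, SRXN1 (1.53), PRDX5 (1.17), TXNIP (1.15) and PRDX2 (1.06) overlapped DMSO, as did TXNIP in HCRED with BaP (1.02). PRDX5 in CDKN2A with NNK also overlapped (1.26). These ratios rest on 2 wells, or 3 in CDKN2A with CSC, and were not tested.

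The TXNRD1 response to BaP differed among the 5 populations, with F = 10.14. For PRDX5 under NNK, all PIK3CA wells lay below DMSO (log2 change -0.13) while all NRF2 (0.38) and FAT1 (0.21) wells lay above. The test over the 7 populations did not pass for PRDX5 (F = 1.49, limma, adjusted p = 0.802), and the pairs of populations were not tested.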

How the results depend on the processing

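TXN, TXNRD1, TXNIP, SRXN1 and PRDX1 under CSC, and TXN, TXNRD1, SRXN1 and PRDX1 under BaP, kept their direction and their adjusted p under 0.05 in every alternative tried. Over all comparisons 48 values passed, and of their 719 alternatives 619 kept the call, 99 lost it and 1 changed sign; 112 did not pass, and of their 1585 alternatives 78 gained a call. Populations were also fitted over every chemical with 3 wells in both. TXN in NRG1 then went to -0.01 (DMSO and NNK) and TXNRD1 in FAT1 to -0.27 (all 4 chemicals, limma, adjusted p = 8.17e-05).

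The number of members called moved most under NNK, from 1 to 3 with DESeq2 or 1 fit over all groups, 2 with median-ratio factors, no filter, all wells, summed wells or without PIK3CA, 0 with the 10000 most variable genes or without GFP, FGFR1, NRF2 or FAT1, and 7 without NRG1 or its replicate 2 (0 to 7 leaving out a replicate). CSC against BaP went from 2 to 1 (variable genes), 7 (all wells), 6 (summed) and 5 (without FAT1). BaP against NNK went from 4 to 2 without GFP, 1 without FAT1 and 7 without NRG1 replicate 2 in NNK (1 to 5 leaving out a replicate). With 1 fit over all groups NRF2 gave 2, FGFR1 0, NRG1 0 and PIK3CA 2. With variable genes only NRG1 gave 1, PIK3CA 2 and CDKN2A 3. Some called members lay outside the 10000 most variable genes and were not tested there. Among the chemicals they were PRDX1 and PRDX6 under CSC, PRDX1 and PRDX5 under BaP, PRDX5 under NNK and TXN in CSC against BaP. Among the populations they were TXN in NRF2, NRG1 and PIK3CA, PRDX1 in PIK3CA and CDKN2A, and PRDX6 in CDKN2A. Those drops are not lost calls. With every chemical of 3 wells in both populations, FGFR1 gave 3 and NRG1 0 (DMSO and NNK), and FAT1 gave 8 (all 4 chemicals). FGFR1 gave 0 with DESeq2. Leaving out a well gave 3 to 5 for NRF2, with 3 without HCRED replicate 3, 0 to 3 for FGFR1, 2 to 5 for FAT1 and 3 to 6 for CDKN2A. Differing responses among populations gave 0 to 1 for CSC leaving out a replicate (TXN without replicate 1) and, for BaP, 0 to 1, with 0 without PIK3CA or GFP. The causes of the other changes were not tested.

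Deviations of same-numbered wells had a median correlation of r 0.02 over 99 pairs (-0.3 to 0.25). Such values cannot show whether wells of the same number shared a source, and the labels do not say. With the replicate block FAT1 gave 5 calls.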
